A study of Mus musculus with 54 samples.

Results

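The sarcomeric myosin heavy chains were followed in mouse myogenic progenitors that carried normal, absent or mutant emerin. The family was taken as 8 genes, Myh1, Myh2, Myh3, Myh4, Myh6, Myh7, Myh7b and Myh8, matched by their gene identifiers among the 19653 genes listed in any of the 27 deposited tables. Of these tables, 15 set a line against wildtype at 1 time of differentiation and 12 set 2 successive times of 1 line against each other. RNA was sequenced from 54 samples, 3 in each of 18 groups made by 6 lines and 3 times, 0, 24 and 48 h after the switch to differentiation medium. All samples were H2K myogenic precursor cells, which are conditionally immortal progenitors of mouse skeletal muscle grown with γ-interferon before differentiation.

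The wildtype line carried its own Emd gene, the X-linked gene of emerin, a protein of the inner nuclear membrane whose loss or mutation causes Emery–Dreifuss muscular dystrophy. The EMD-/y line, labelled emerin null, came from mice without emerin. The other 4 lines were EMD-/y cells transduced with lentivirus, so all 5 lines other than wildtype shared the emerin-null background and its cell line of origin. The line called +EMD received wildtype emerin, and the S54F, Δ95–99 and Q133H lines received emerin with a mutation that causes the disease. No line carrying an empty vector was analysed here. The transduced lines had been selected in puromycin, at a lower dose for +EMD and Q133H than for S54F and Δ95–99, and the methods give a higher plating density for the mutant lines than for wildtype and EMD-/y. These differences between lines cannot be told apart from the emerin form. Each line was 1 culture line, and the study's methods describe technical replicates within biological replicates, so whether the 3 samples of a group are separate cultures is not settled.

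Myosin heavy chain is the motor of the thick filament. Heavy chains pair with each other and with light chains, and the heavy chain isoform sets how fast a fibre shortens. Differentiating myoblasts first make the embryonic chain (Myh3) and the perinatal chain (Myh8). Adult fast fibres use the IIa (Myh2), IIx (Myh1) and IIb (Myh4) chains, slow fibres and the ventricle use the β chain (Myh7), and the atrium and the adult mouse ventricle use the α chain (Myh6). Myh7b is an ancient member that is spliced so that striated muscle makes little protein from it. Antibodies to myosin heavy chain (MyHC) are the usual stain for terminal differentiation of cultured muscle cells.

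The genes Myh1, Myh2, Myh3, Myh4 and Myh8 lie in 1 cluster of 230 kb on chromosome 11, from base 67078273 to base 67308634 of mm10 (GRCm38.p6), all on the forward strand. Their order is Myh3 (chr11:67078273-67102291), Myh2 (chr11:67171027-67197517), Myh1 (chr11:67200102-67224577), Myh4 (chr11:67237812-67260447) and Myh8 (chr11:67277124-67308634). Myh6 (chr14:54941921-54968017) and Myh7 (chr14:54970684-54994626) stand in tandem on the reverse strand of chromosome 14, within 52.7 kb. Myh7b (chr2:155611243-155634307) lies alone on the forward strand of chromosome 2. The annotation places an antisense gene across part of Myh1 (Myhas), Myh2 (9430073C21Rik), Myh6 (Gm49130) and Myh7 (Mhrt, Gm29015 and Gm31251), and the end of Trpc4ap across the end of Myh7b. The library kit is not stated to keep strand, so reads from these overlaps cannot be told apart. The transcripts are alike in places. Of all windows of 100 bases in the transcript, 11.4% in Myh6 and 11.2% in Myh7 also occur in another member, against 9.46% in Myh1, 9.17% in Myh2, 5.17% in Myh8, 3.85% in Myh4 and none in Myh3 or Myh7b.

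The 250 bases before a RefSeq start of 6 members are shown here, 5′ to 3′ on the coding strand. They are shown because the members of the chromosome 11 cluster had unlike levels in the same cells although they are neighbours. For Myh3 and Myh7 the start used lies inside the gene span given above. A further Myh7 window (chr14:54994627-54994876), not shown, held 1 E-box. Capitals mark the E-box CANNTG, the motif bound by MyoD and myogenin, and the TATA box TATAAA, each on either strand.
Myh3 (chr11:67078050-67078299): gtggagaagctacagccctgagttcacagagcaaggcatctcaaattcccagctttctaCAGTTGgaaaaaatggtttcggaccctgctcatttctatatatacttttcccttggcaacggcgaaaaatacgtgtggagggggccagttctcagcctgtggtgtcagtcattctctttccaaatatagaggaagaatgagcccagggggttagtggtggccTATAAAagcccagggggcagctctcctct
Myh8 (chr11:67276874-67277123): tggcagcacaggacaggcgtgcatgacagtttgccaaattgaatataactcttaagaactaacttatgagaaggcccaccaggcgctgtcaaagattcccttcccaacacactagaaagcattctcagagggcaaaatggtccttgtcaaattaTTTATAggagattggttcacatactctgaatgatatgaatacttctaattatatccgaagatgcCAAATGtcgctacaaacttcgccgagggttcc
Myh2 (chr11:67170777-67171026): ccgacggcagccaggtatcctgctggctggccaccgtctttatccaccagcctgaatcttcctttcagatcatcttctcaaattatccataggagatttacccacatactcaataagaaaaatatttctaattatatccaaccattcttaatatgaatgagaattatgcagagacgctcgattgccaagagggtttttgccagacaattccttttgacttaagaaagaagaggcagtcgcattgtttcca
Myh1 (chr11:67199852-67200101): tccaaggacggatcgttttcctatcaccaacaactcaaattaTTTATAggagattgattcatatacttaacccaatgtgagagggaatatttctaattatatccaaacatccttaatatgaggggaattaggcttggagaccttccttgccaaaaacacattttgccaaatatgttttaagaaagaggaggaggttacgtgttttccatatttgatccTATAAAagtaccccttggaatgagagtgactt
Myh4 (chr11:67237562-67237811): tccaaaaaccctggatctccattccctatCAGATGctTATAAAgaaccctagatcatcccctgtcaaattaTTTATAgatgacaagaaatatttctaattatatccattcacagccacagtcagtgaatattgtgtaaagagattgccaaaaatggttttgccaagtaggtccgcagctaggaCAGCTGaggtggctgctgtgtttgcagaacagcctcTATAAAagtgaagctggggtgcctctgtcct
Myh7 (chr14:54994550-54994799): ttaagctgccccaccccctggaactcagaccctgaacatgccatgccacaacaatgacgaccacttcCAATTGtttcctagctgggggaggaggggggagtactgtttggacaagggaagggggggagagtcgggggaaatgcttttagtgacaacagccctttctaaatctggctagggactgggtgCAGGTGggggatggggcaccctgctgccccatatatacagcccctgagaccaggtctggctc
TATAAA stood at positions -29 to -24 from the start in Myh3, -32 to -27 in Myh1 and -31 to -26 in Myh4. The only match in Myh8 ran from -96 to -91 on the opposite strand, and the windows of Myh2, Myh6, Myh7 and Myh7b held none. Of 32851 mouse promoter windows of the same length, 12.4% held TATAAA. The E-box occurred in the windows of Myh3, Myh4, Myh6, Myh7, Myh7b and Myh8, in neither Myh1 nor Myh2, and in 66.2% of all windows. One strict form of the MEF2 site, CTA and TAG with 4 bases of any kind between them, occurred in none of the 8 genes' windows. It occurred in 3.2% of all windows. Other forms of the MEF2 site were not searched, so the windows are not shown to lack one. Myh1, Myh2, Myh4 and Myh8 shared the run ttctaattatatcc, which begins at -160, -125, -158 and -54 and occurs in no other promoter window (4 windows, 0.0122% of all). These matches are descriptions of the letters, and no factor's binding was measured.

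The deposited tables hold 1 normalized value per gene and group, pooled over libraries, so no value of a single sample could be given and no SD, n or test was possible. The values are normalized read counts from a table's 6 libraries, and they summed to 16719491 to 21128040 per group. The 2 values of a table are drawn together for genes with few reads: genes with 1 read in all had values only 1.08 to 1.36 times apart, and no value was 0. Folds of weakly expressed genes are therefore understated, and a listed value of a few reads is not evidence of expression. Because a group appears in 2 to 7 separately normalized tables, the range of its level over those tables is given here as the only measure of technical spread. Over the 144 combinations of member and group, the highest level was a median 1.11 times the lowest. It was over 1.5 times the lowest in 19, of which 7 had a median of at least 50. A comparison was called when the log2 ratio of the values plus 1 reached 1 (2-fold) and the higher value was at least 10. Genes with both values under 10 were not compared, and a percent in brackets after a count is the share of all compared genes called in that direction. Myh6 was not listed in the table of Δ95–99 from 0 to 24 h. All other members were listed in all 27 tables.

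As a check of the labels, mouse Emd stood at 1054 to 1929.8 normalized reads in wildtype, at most 2.35 in EMD-/y and at most 1.72 in the transduced lines, whose emerin came from the vector. Skeletal myogenic markers (Myod1, Myf5, Pax7, Des, Cdh15, Myog and Ckm) summed to 24377 to 150245 normalized reads, with 6 or 7 of the 7 at 10 or more in every group. The cardiomyocyte markers Nppa, Nkx2-5 and Tnni3 were all under 10 in every group, with a sum of at most 4.12, and Myl7 was listed in no table, so Myh6 and Myh7 were read here in cells whose defining cardiac markers were near 0. Summed markers of endothelial cells reached 51.9, of fibroblasts 94.4 and of leukocytes 115. Adipocyte markers summed to 89.3 to 1095, and smooth muscle markers, of which Acta2 and Smtn are also made by myogenic cells, to 17251 to 95086. The part of these in the results below was not tested. In a culture of many cells, fewer differentiated cells and less RNA per differentiated cell cannot be told apart.

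Myh3, the embryonic chain, was the most abundant member per kilobase in all 18 groups. At 0 h Myh3 stood at 9223 in wildtype, 19387 in EMD-/y, 2156 in +EMD, 10253 in S54F, 3706 in Δ95–99 and 7491 in Q133H. The Myh3 level at 24 h was 70064 in wildtype, 72882 in EMD-/y, 12657 in +EMD, 32606 in S54F, 4166 in Δ95–99 and 2814 in Q133H. Myh3 at 48 h measured 257188 in wildtype, 262412 in EMD-/y, 121956 in +EMD, 214955 in S54F, 79940.1 in Δ95–99 and 18371 in Q133H. EMD-/y was highest at each time, with wildtype next at 24 and 48 h. Q133H at 24 h ranged from 1996 to 3712 over its 3 tables, the only group of Myh3 with a spread over 1.5-fold, and after scaling to the sum of each table that range was below that of every other line. The order at 48 h on that scale was EMD-/y, wildtype, S54F, +EMD, Δ95–99 and Q133H, with no overlap of neighbouring ranges. In Q133H alone, the level at 24 h was below that at 0 h, and the ranges of the 2 times did not overlap.

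Myh8, the perinatal chain, was next per kilobase at 48 h in wildtype, EMD-/y and S54F, but not in +EMD, Δ95–99 or Q133H, where Myh1 took that place. The Myh8 level at 0 h was 1406 in wildtype, 4095 in EMD-/y, 781 in +EMD, 2660.4 in S54F, 585 in Δ95–99 and 840.5 in Q133H. Myh8 at 24 h measured 8002 in wildtype, 14934 in EMD-/y, 1848 in +EMD, 4067 in S54F, 217 in Δ95–99 and 150.4 in Q133H. At 48 h Myh8 stood at 62487 in wildtype, 79805 in EMD-/y, 31364 in +EMD, 67033 in S54F, 10855 in Δ95–99 and 1477 in Q133H. EMD-/y was highest and Q133H lowest at both 24 and 48 h. The levels of Q133H ranged from 89.8 to 200.2 at 24 h and from 1095 to 1859.9 at 48 h, both below every other line on the scale of table sums. No neighbouring ranges in the order of lines overlapped at any time. In both Δ95–99 and Q133H the 24 h level was below the 0 h level.

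Myh2, the chain of IIa fibres, separated wildtype from all 5 lines of the emerin-null background, of which only EMD-/y was without emerin. Myh2 at 0 h measured 113 in wildtype, 14.6 in EMD-/y, 2.97 in +EMD, 6.99 in S54F, 2.03 in Δ95–99 and 4.21 in Q133H. At 24 h Myh2 stood at 703 in wildtype, 33.1 in EMD-/y, 2.82 in +EMD, 13.2 in S54F, 1.55 in Δ95–99 and 2.53 in Q133H. The Myh2 level at 48 h was 3756 in wildtype, 258 in EMD-/y, 21.5 in +EMD, 76.6 in S54F, 65.9 in Δ95–99 and 31.3 in Q133H. The wildtype ranges were above those of the other 5 lines at all 3 times, and EMD-/y was next each time. In +EMD, Δ95–99 and Q133H at 0 and 24 h Myh2 stood under 5 reads, close to the values that genes with few reads have, and the range of +EMD overlapped those of both other lines at both times. At 48 h, the ranges of S54F and Δ95–99 overlapped, as did those of Q133H and +EMD. Wildtype emerin in +EMD did not go with a higher Myh2 than in EMD-/y: the level was 21.5 against 258 at 48 h.

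Myh1, the chain of IIx fibres, had another order, with wildtype at 48 h below all lines except Q133H. At 0 h Myh1 stood at 980 in wildtype, 3445 in EMD-/y, 809 in +EMD, 3435 in S54F, 1247 in Δ95–99 and 3733 in Q133H. The Myh1 level at 24 h was 4646 in wildtype, 9976 in EMD-/y, 3314 in +EMD, 5461 in S54F, 1188 in Δ95–99 and 882 in Q133H. Myh1 at 48 h measured 21352 in wildtype, 39729 in EMD-/y, 34547 in +EMD, 39174 in S54F, 39367 in Δ95–99 and 12871 in Q133H. Δ95–99 had the highest Myh1 of all lines at 48 h after scaling to table sums, although it had among the lowest at 24 h. The level in Q133H at 24 h ranged from 589.6 to 1609.8 over its tables and overlapped that of Δ95–99. At 0 h the range of Q133H lay above that of S54F after scaling to table sums, and the range of EMD-/y overlapped both.

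Myh4, the chain of IIb fibres, was expressed at a low level. The Myh4 level at 0 h was 23.9 in wildtype, 99.01 in EMD-/y, 6.18 in +EMD, 47.7 in S54F, 3.39 in Δ95–99 and 10.7 in Q133H. Myh4 at 24 h measured 97.1 in wildtype, 169 in EMD-/y, 7.96 in +EMD, 22.3 in S54F, 2.25 in Δ95–99 and 1.69 in Q133H. At 48 h Myh4 stood at 668 in wildtype, 1122 in EMD-/y, 404 in +EMD, 708 in S54F, 292 in Δ95–99 and 37.0 in Q133H. S54F had less Myh4 at 24 h than at 0 h, and +EMD, Δ95–99 and Q133H had under 10 reads at 24 h. The ranges of S54F and wildtype overlapped at 48 h, and those of Δ95–99 and Q133H at 24 h.

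Myh7, the β chain of slow fibres, was highest in +EMD at 48 h. Myh7 at 0 h measured 160.1 in wildtype, 861 in EMD-/y, 87.5 in +EMD, 621 in S54F, 78.1 in Δ95–99 and 532 in Q133H. At 24 h Myh7 stood at 1490 in wildtype, 3713 in EMD-/y, 722 in +EMD, 1343 in S54F, 117 in Δ95–99 and 117 in Q133H. The Myh7 level at 48 h was 7521 in wildtype, 14314 in EMD-/y, 19311 in +EMD, 10539 in S54F, 5609.8 in Δ95–99 and 1287 in Q133H. At 48 h the order was +EMD, EMD-/y, S54F, wildtype, Δ95–99 and Q133H, and no neighbouring ranges overlapped. At 24 h +EMD had stood below EMD-/y, wildtype and S54F, and the level in Q133H ranged from 63.9 to 124, overlapping Δ95–99. The wildtype 0 h level ranged from 149.7 to 238 over 6 tables and that of EMD-/y from 684 to 1039 over 2, which did not overlap.

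Myh6, the α cardiac chain, had few reads at 0 h and passed 50 reads only at 48 h, in 4 of the 6 lines. At 0 h Myh6 stood at 2.37 in wildtype, 8.41 in EMD-/y, 1.80 in +EMD, 4.97 in S54F, 0.685 in Δ95–99 and 2.85 in Q133H. The Myh6 level at 24 h was 22.3 in wildtype, 27.8 in EMD-/y, 5.40 in +EMD, 7.24 in S54F, 0.961 in Δ95–99 and 1.94 in Q133H. Myh6 at 48 h measured 85.7 in wildtype, 87.8 in EMD-/y, 103 in +EMD, 75.3 in S54F, 35.3 in Δ95–99 and 4.81 in Q133H. +EMD was highest and Q133H lowest at 48 h, as for Myh7, its neighbour on chromosome 14. How reads from windows that occur in both genes were assigned is not given in the sources used here.

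Myh7b, the ancient member, had its highest level in wildtype at 24 and 48 h. The Myh7b level at 0 h was 6.57 in wildtype, 16.4 in EMD-/y, 3.26 in +EMD, 12.9 in S54F, 3.71 in Δ95–99 and 6.23 in Q133H. Myh7b at 24 h measured 96.0 in wildtype, 84.4 in EMD-/y, 8.28 in +EMD, 26.2 in S54F, 2.83 in Δ95–99 and 4.40 in Q133H. At 48 h Myh7b stood at 156 in wildtype, 111 in EMD-/y, 54.1 in +EMD, 65.6 in S54F, 48.2 in Δ95–99 and 21.6 in Q133H. At 24 h wildtype and EMD-/y stood above all 4 transduced lines. The tables give Myh7b lengths from 3235 to 6118 bases, against a narrow range for the other members, so its level per kilobase is less certain.

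**Figure D1:**
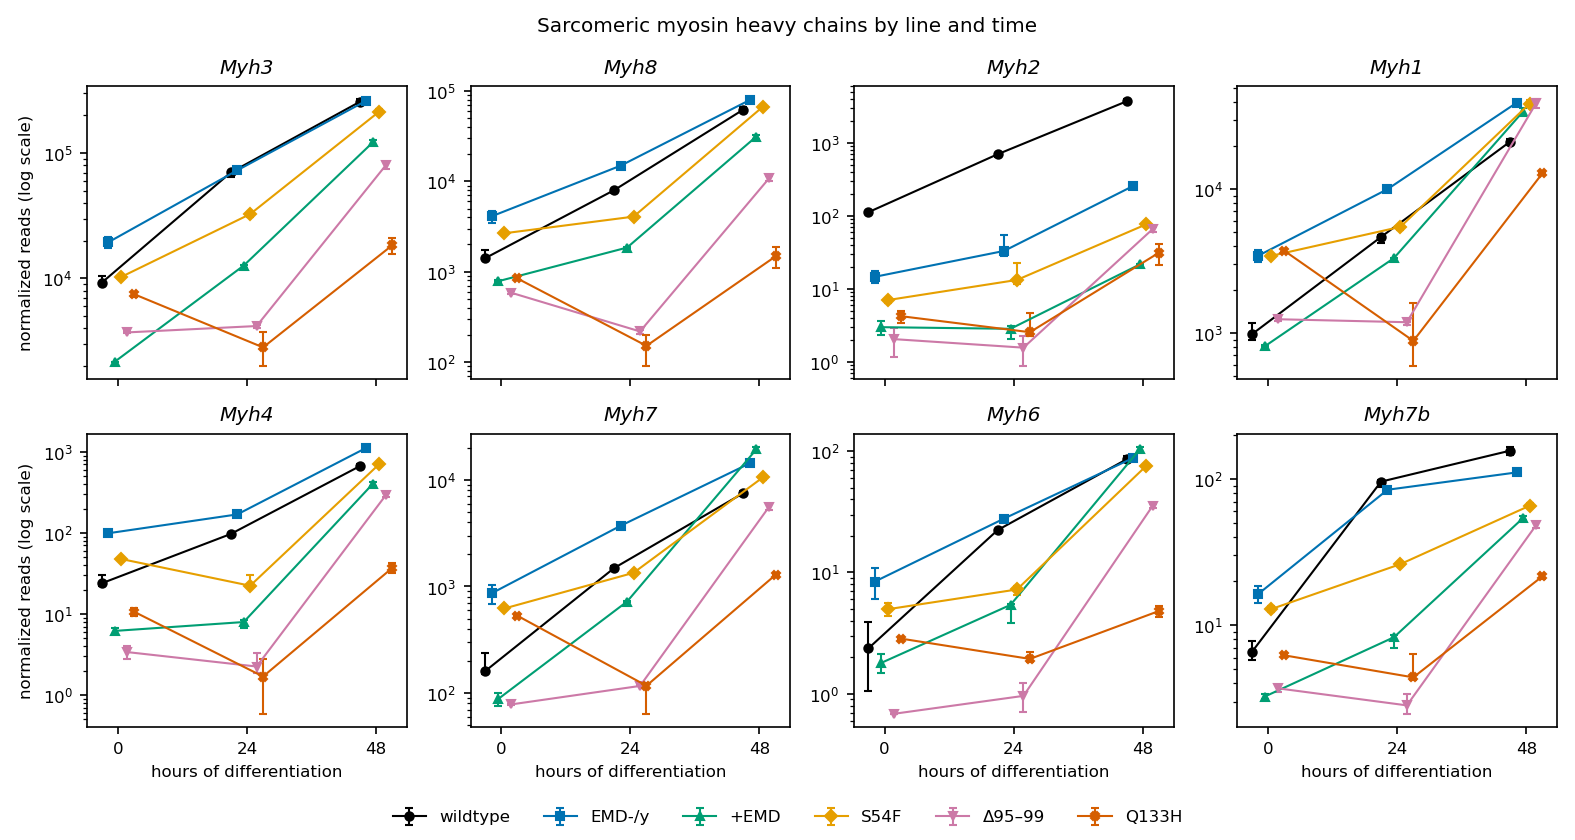
Level of each heavy chain gene, 1 panel per gene, in normalized reads on a log axis against hours of differentiation. Points are the median over a group's tables and bars the lowest and highest table, with 1 colour per line, set slightly apart sideways at each time. Wildtype lies far above the other lines for Myh2, and Q133H dips at 24 h for Myh1, Myh3, Myh7 and Myh8.

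The make-up of the family was compared as each member's percent of the 8 genes' summed reads per kilobase. Myh3 took most of the sum in every group, from 53.7% to 82.5%. At 48 h it held 73.0% in wildtype, 66.2% in EMD-/y, 58.9% in +EMD, 64.9% in S54F, 58.9% in Δ95–99 and 53.7% in Q133H. The wildtype share was above those of the other 5 lines at all 3 times. Myh1 went the other way, with 6.04% in wildtype at 48 h, 9.97% in EMD-/y, 16.6% in +EMD, 11.8% in S54F, 28.8% in Δ95–99 and 38.0% in Q133H. The 2 tables of Q133H gave 34.2 and 41.8%, above the range of every other line. The 3 lines with the smallest family sum at 48 h, Q133H, Δ95–99 and +EMD, had the 3 largest shares of Myh1.

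Myh8 held 17.4% of the family at 48 h in wildtype, 19.8% in EMD-/y and 19.9% in S54F, but 14.9% in +EMD, 7.84% in Δ95–99 and 4.20% in Q133H. Myh7 held 9.34% in +EMD at that time and 2.14% in wildtype. Myh2 held 0.935%, 0.831% and 1.06% in wildtype at 0, 24 and 48 h, and at most 0.0895% in any other line. Shares of genes with few reads carry the same drawing together of values as the levels.

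As a percent of all normalized reads, the 8 genes together made up 0.0650, 0.448 and 1.84% in wildtype at 0, 24 and 48 h. The same percents were 0.152, 0.570 and 2.07 in EMD-/y, and 0.0935, 0.234 and 1.66 in S54F. They were lower in +EMD at 0.0205, 0.104 and 1.08, in Δ95–99 at 0.0303, 0.0311 and 0.723, and, at 24 and 48 h, in Q133H at 0.0680, 0.0209 and 0.188. Q133H was the only line whose percent at 24 h was below that at 0 h. Δ95–99 was about level between these times, with ranges of 0.0293 to 0.0312% and 0.0306 to 0.0317%.

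**Figure D2:**
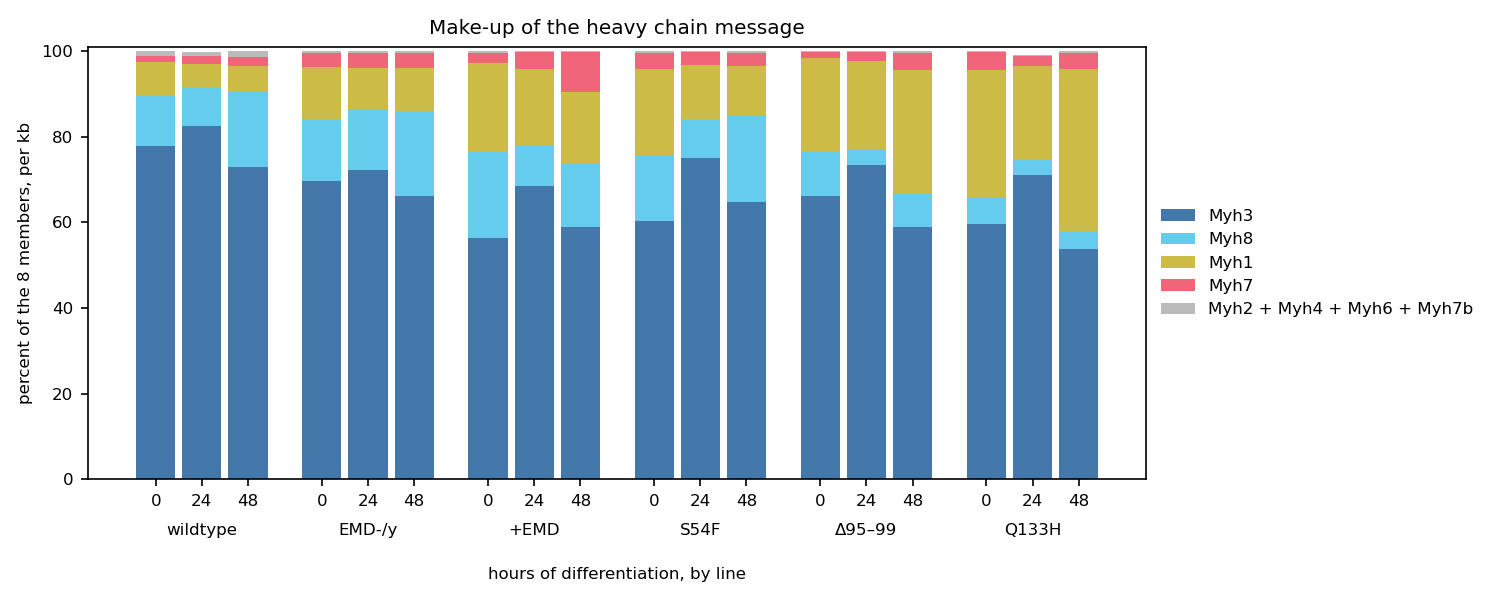
Percent of the 8 members' summed reads per kilobase held by each gene, as stacked bars for the 6 lines at 0, 24 and 48 h. Myh3 is the largest part of every bar, and the Myh1 part is widest in Q133H and Δ95–99 at 48 h.

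The study asked how each emerin form bears on the transcriptome of differentiating progenitors, and the 15 line tables address this for the heavy chains. All 15 share the wildtype groups at their time, so they are not independent of each other. Without emerin, in EMD-/y, the family did not go down as a group: 4 members were higher than in wildtype at 0 h and Myh2 was lower at each time. At 0 h, 4 of the 7 members that could be compared were higher (4.97% of all 13370 genes compared) and 1 was lower (3.81%). The 4 were Myh4 with a log2 ratio of 1.64, Myh7 with 1.52, Myh1 with 1.40 and Myh8 with 1.01. At 24 h, 2 of 8 were higher (4.61%), Myh7 at 1.26 and Myh1 at 1.17, and 1 was lower (2.81%). At 48 h none of 8 was higher (4.77%), with Myh7 at 0.99 and Myh1 at 0.95 just under the threshold, and 1 was lower (2.86%). The lower member was Myh2 throughout, at -2.56, -3.55 and -3.76. Myh3 was not called in these tables, at 0.75, 0.16 and 0.086. The 0 h values depended on the table. With the levels of the groups' other tables, Myh3 at 1.23, Myh6 at 1.90 and Myh7b at 1.43 also passed the threshold at 0 h, Myh7 stood at 2.70 and Myh8 at 1.76. Myh2 at 24 h was at -4.37 with those levels.

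With wildtype emerin put back, in +EMD, most members were below wildtype at 24 h and 1 slow chain was above it at 48 h. At 0 h, none of 6 members was higher (6.17%) and 3 were lower (10.9%): Myh2 at -4.61, Myh3 at -2.07 and Myh4 at -1.59. At 24 h, none of 8 was higher (8.93%) and 7 were lower (10.7%), all but Myh1 at -0.49. The lowest were Myh2 at -7.46, Myh4 at -3.38 and Myh7b at -3.34. Myh7 at this time stood at -1.005, on the threshold, and was not called with the levels of the groups' other tables, at -0.94. At 48 h, Myh7 was higher at 1.29, 1 of 8 (10.7%), and 4 were lower (7.68%). The 4 were Myh2 at -7.36, Myh7b at -1.54, Myh3 at -1.13 and Myh8 at -1.04.

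Among the disease mutants, S54F had the fewest members called, 10 over the 3 times against 18 in each of Δ95–99 and Q133H. At 0 h, 2 of 7 members were higher (5.77%), Myh7 at 1.92 and Myh1 at 1.76, and Myh2 was lower (6.11%) at -3.70. At 24 h, none of 8 was higher (5.62%) and 5 were lower (6.38%), namely Myh2 at -4.90, Myh4 at -2.07, Myh7b at -1.78, Myh6 at -1.38 and Myh3 at -1.11. At 48 h, none of 8 was higher (5.87%) and 2 were lower (4.73%), Myh2 at -5.59 and Myh7b at -1.24. At that time, Myh8 at 0.074 and Myh4 at 0.059 were near the wildtype level.

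In Δ95–99, which lacks a short stretch of emerin, all 8 members were lower than in wildtype at 24 h and most were still lower at 48 h. At 0 h, none of 6 was higher (5.61%) and 4 were lower (6.75%): Myh2 at -4.87, Myh4 at -2.29, Myh3 at -1.28 and Myh8 at -1.18. At 24 h, none of 8 was higher (8.84%) and 8 were lower (12.1%). The ratios ran from -2.06 in Myh1 to -5.31 in Myh8 and -8.16 in Myh2, with Myh3 at -4.15. At 48 h, none of 8 was higher (13.1%) and 6 were lower (8.91%), from Myh4 at -1.33 to Myh8 at -2.67 and Myh2 at -5.76. Myh1 at 0.72 and Myh7 at -0.58 were not called.

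Q133H was the line with the lowest heavy chain levels at 48 h for every member but Myh2. At 0 h, 2 of 6 members were higher (6.31%), Myh1 at 1.68 and Myh7 at 1.43, and Myh2 was lower (8.46%) at -4.25. At 24 h, none of 8 was higher (9.49%) and 8 were lower (14.6%), from -3.02 in Myh1 to -6.50 in Myh8 and -7.70 in Myh2. With the levels of the groups' other tables, the 24 h ratios of 5 members were nearer to 0, at -1.91 in Myh1, -4.43 in Myh3, -4.91 in Myh4, -3.62 in Myh7 and -5.51 in Myh8. Myh1 and Myh7 had gone from above wildtype at 0 h to below it at 24 h by either set of levels. At 48 h, none of 8 was higher (18%) and 7 were lower (15.5%). These included Myh2 at -6.56, Myh8 at -5.15, Myh4 at -4.03, Myh3 at -3.67 and Myh7 at -2.58. Only Myh1, at -0.80, was within 2-fold. The other tables gave -7.41 for Myh2 and -5.85 for Myh8.

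In Q133H at 48 h, summed markers of some other cell types were above wildtype and others were not. Of all compared genes, 18% were called higher and 15.5% lower in that comparison. Leukocyte markers summed to 115 reads against 24.9 in wildtype, with 1 of the 4, Cd68, at 10 or more and called higher. Adipocyte markers summed to 605 against 129.5, with Cebpa and Fabp4 called higher. Endothelial markers summed to 44.0 against 18.8, with Kdr and Tek called higher, and fibroblast markers to 94.4 against 52.3, with Pdgfra called higher. Smooth muscle markers summed to 31050 against 95086, and Schwann cell markers to 9.78 against 10.2. Skeletal myogenic markers summed to 67259 against 150245, and 5 of the 7 were called lower, with Myf5 higher. In Δ95–99 at 48 h Kdr and Tek were called higher (13.1% of all compared genes). The part of these cell types in the heavy chain levels was not tested.

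In total, 70 of the 120 pairs of member and line table were called, 11 higher and 59 lower, and Myh2 made up 15 of the lower calls. The 120 include pairs at 0 h with both values under 10, which were not compared. Of all compared genes, 4.61 to 18% were called higher and 2.81 to 15.5% lower in the 15 tables. The medians of all genes compared lay between -0.012 and 0.0038 on the log2 scale in the 15 tables, while the member medians ran from -4.87 in Q133H at 24 h to 1.01 in EMD-/y at 0 h. When each group's level was taken from its other tables instead, 69 of the 70 calls were made again with the same sign, and Myh7 in +EMD at 24 h was the exception. Those levels gave 76 calls in all. Beside the 3 in EMD-/y at 0 h, the calls they added were Myh8 in EMD-/y at 24 h (1.02), and at 0 h Myh4 in S54F (1.03), Myh7 in Δ95–99 (-1.10) and Myh4 in Q133H (-1.31). Beyond the values given above, 2 of the reported calls moved by over 1.5-fold, Myh2 in S54F at 24 h to -5.66 and in Δ95–99 at 0 h to -5.73.

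**Figure D3:**
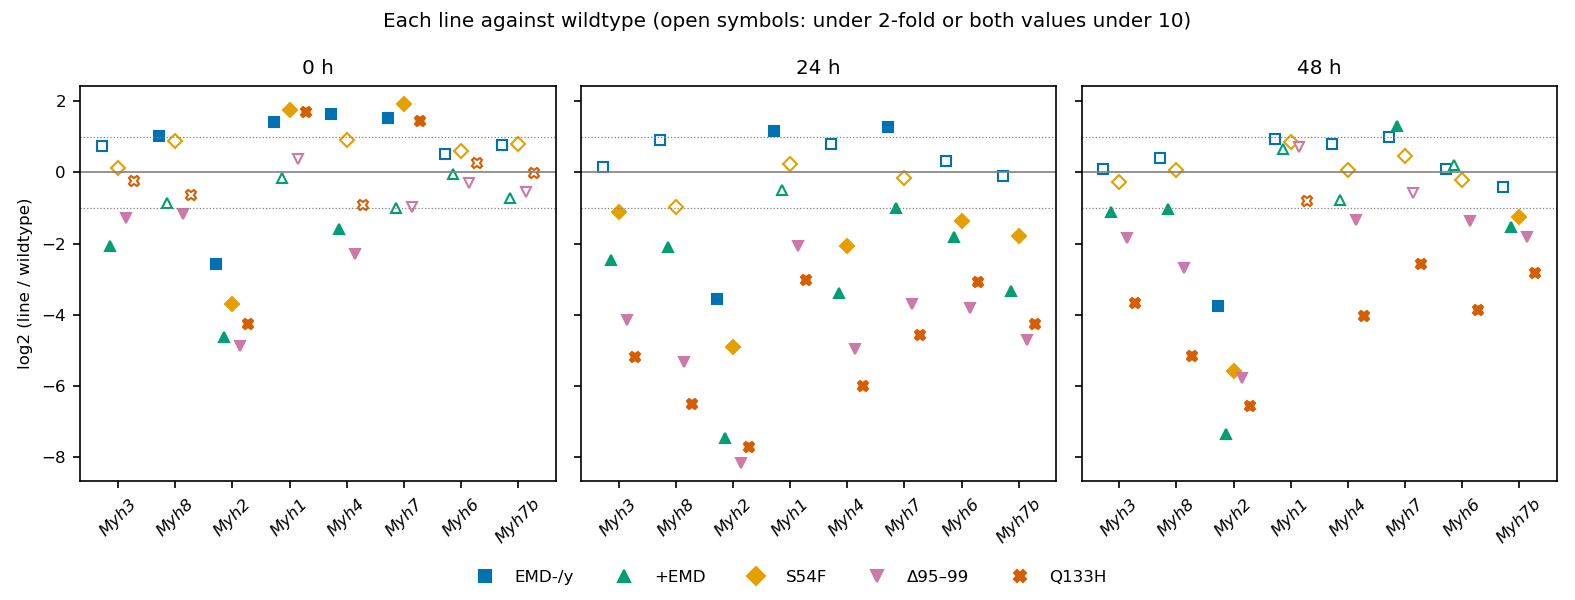
Log2 ratio of each line to wildtype for the 8 members, in a panel per time, with open symbols for ratios under 2-fold or with both values under 10. At 24 h all symbols of Δ95–99 and Q133H lie below the lower 2-fold line, and Myh2 lies below it in every line at every time.

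The change over time within a line was read from the 12 tables that set successive times against each other. In wildtype, the whole family went up with differentiation. From 0 to 24 h, 8 of 8 members were higher at the later time (12.5% of all genes compared) and none was lower (10.3%), from 1.91 in Myh4 to 3.15 in Myh7 and 3.54 in Myh7b. From 24 to 48 h, 7 of 8 were higher (8.01%) and none was lower (11.9%), from 1.91 in Myh6 to 3.10 in Myh8, with Myh7b at 0.84 not called. Myh3 was higher by 2.78 and then by 2.03.

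EMD-/y also went up over both days. From 0 to 24 h, 7 of 8 members were higher (12%) and none was lower (9.42%), with Myh3 at 1.78 and Myh4, not called, at 0.73. Between 24 and 48 h, 7 of 8 were higher (7.61%) and none was lower (11%), with Myh2 at 2.92, Myh8 at 2.40 and Myh7b, not called, at 0.49. With the groups' other tables, the first day gave 2.56 for Myh7, against 1.80, 2.22 for Myh8, against 1.63, and 2.13 for Myh6, against 1.197.

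In +EMD, only 4 members reached 10 reads in either group from 0 to 24 h, and all 4 were higher (10.4%), none lower (6.93%). Myh7 was at 2.82, Myh3 at 2.56, Myh1 at 2.02 and Myh8 at 1.15. From 24 to 48 h, 8 of 8 were higher (11%) and none was lower (9.53%), with Myh4 at 5.57, Myh7 at 4.81 and Myh8 at 4.15.

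In S54F, the members did not move together before 24 h. From 0 to 24 h, 2 of 7 were higher (9.42%), Myh3 at 1.65 and Myh7 at 1.09, and 1 was lower (7.19%), Myh4 at -1.12. The Myh4 call was not made with the groups' other tables, at -0.83. On the second day, 8 of 8 were higher (9.39%) and none was lower (11.1%), from 1.39 in Myh7b to 4.20 in Myh8 and 4.59 in Myh4.

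In Δ95–99, most members that could be compared stayed within 2-fold over the first day. From 0 to 24 h, none of 4 members was higher (7.32%) and Myh8 was lower (6.69%) at -1.31. Myh3 at 0.19, Myh1 at -0.11 and Myh7 at 0.56 were not called. From 24 to 48 h, 8 of 8 were higher (8.95%) and none was lower (5.24%), by larger ratios than in any other line for every member but Myh6 (4.09, against 4.09 in +EMD). They ran from 3.55 in Myh7b through 4.33 in Myh3 and 5.14 in Myh1 to 6.17 in Myh4. The groups' other tables gave 5.06 for Myh2, against 4.26, and 4.72 for Myh6.

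In Q133H, the measured members went down before they went up. From 0 to 24 h, none of 4 was higher (5.77%) and 4 of 4 were lower (6.37%): Myh8 at -2.40, Myh7 at -2.19, Myh1 at -2.11 and Myh3 at -1.34. Then, from 24 to 48 h, 7 of 7 were higher (6.33%) and none was lower (4.44%), with Myh7 at 3.33, Myh1 at 3.01, Myh8 at 2.45 and Myh3 at 2.07. The groups' other tables gave larger ratios for this second day, at 3.97, 4.23, 4.06 and 3.25 in the same order, and Myh2 moved from 1.98 to 3.74, Myh4 from 3.12 to 4.43 and Myh7b from 1.56 to 2.24. In total, 72 calls were made on members in the tables between times, 66 higher and 6 lower at the later time. Of all compared genes, 5.77 to 12.5% were called higher and 4.44 to 11.9% lower per table. From the groups' other tables, 71 of the 72 calls were made again with the same sign.

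Whether a line's change over time differed from that of wildtype was read as the difference of the 2 log2 ratios, and was called at 1 or more. Each difference was also formed from the line tables, as the ratio to wildtype at the later time minus that at the earlier time. In EMD-/y from 0 to 24 h, none of 8 members changed more than in wildtype (1.53% of all genes compared) and 6 changed less (1.75%), with Myh7 at -1.35 and Myh3 at -1.002. None of these 6 calls was made from the line tables, where Myh7 stood at -0.26 and Myh3 at -0.59, so the difference is not larger than the spread between tables. From 24 to 48 h no member of 8 differed in either direction (1.42% and 1.03%).

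In +EMD from 0 to 24 h, none of 4 members had a more positive change (6.06%) and 1 a more negative one (4.23%), Myh8 at -1.20. The other 4 had both +EMD values under 10 and were not compared. Their differences were also negative, at -2.69 in Myh7b, -2.68 in Myh2, -1.80 in Myh6 and -1.69 in Myh4. Over the next 24 h, 7 of 8 were more positive (8.27%) and none more negative (2.78%), with Myh4 at 2.70, Myh7 at 2.40 and Myh3 at 1.37, and Myh2 at 0.0097. In S54F from 0 to 24 h, none of 7 was more positive (3.95%) and 7 were more negative (4.43%), from -1.13 in Myh3 to -3.04 in Myh4. From 24 to 48 h, 3 of 8 were more positive (3.26%), Myh4 at 1.72, Myh6 at 1.37 and Myh8 at 1.10, and none was more negative (2.03%).

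In Δ95–99 from 0 to 24 h, none of 4 was more positive (5.63%) and 4 were more negative (7.40%), from -2.28 in Myh1 to -3.65 in Myh8. Myh7b at -3.91, Myh2 at -2.75 and Myh4 at -2.31 had both Δ95–99 values under 10 and were not compared. Later, from 24 to 48 h, 8 of 8 were more positive (11%) and none more negative (2.44%), with Myh4 at 3.30, Myh7 at 3.22 and Myh3 at 2.30. The call on Myh2, at 1.70, depended on the value added before the logarithm. In Q133H from 0 to 24 h, none of 4 was more positive (8.39%) and 4 were more negative (10.1%), from -4.12 in Myh3 to -5.34 in Myh7. Myh7b at -3.93, Myh4 at -3.89, Myh2 at -2.98 and Myh6 at -2.82 had both Q133H values under 10 and were not compared. From 24 to 48 h, none of 7 was more positive (12.3%) or more negative (4.16%) by the time tables, with Myh3 at 0.039 and Myh8 at -0.66. The line tables gave a more positive change for the same 7 members, with Myh3 at 1.504, Myh8 at 1.35 and Myh1 at 2.21. Q133H at 24 h made up 4 of the 7 combinations above 50 reads with a spread over 1.5-fold between tables (Myh1, Myh3, Myh7 and Myh8), and the second day of this line therefore could not be ranked against wildtype.

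**Figure D4:**
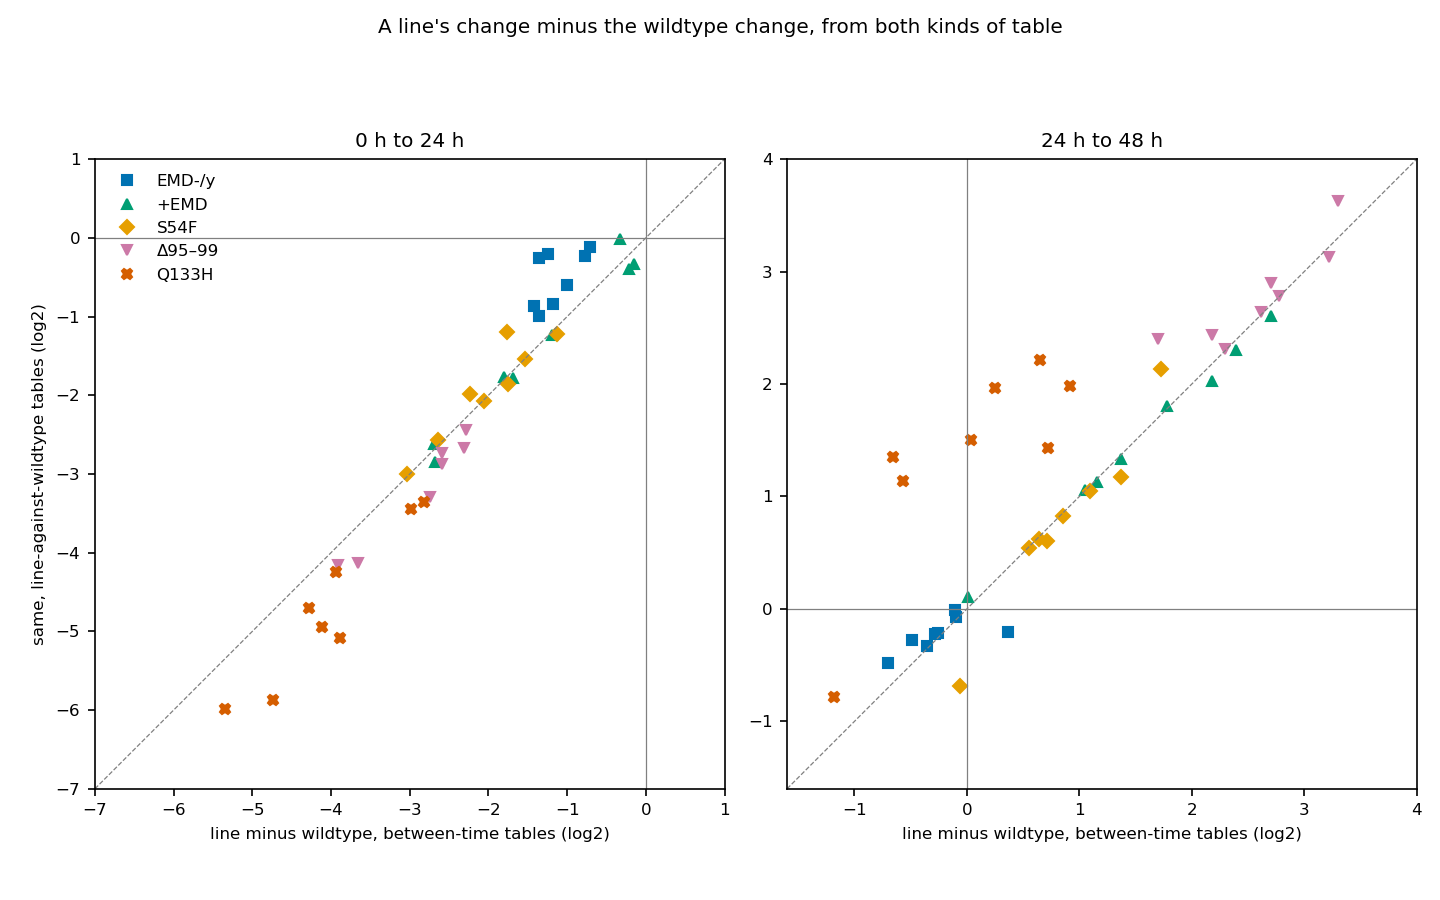
A line's log2 change over time minus that of wildtype, from the time tables on the x axis and from the line tables on the y axis, with 1 point per member and line, also for members under 10 reads. From 0 to 24 h those of Q133H reach the lowest values on both axes, and from 24 to 48 h those of Q133H lie above the diagonal.

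The partners of the heavy chains were read from lists of genes that share the thick filament or its assembly. For these lists the number in brackets after a count is the median log2 ratio of the list. The counts are read against the share of all compared genes called lower, which was 12.1% at 24 h and 8.91% at 48 h in Δ95–99, 14.6% and 15.5% in Q133H, 10.7% and 7.68% in +EMD, and 6.38% at 24 h in S54F. A count of 1 gene in a list of this size is not set apart from these shares. Myosin light chains of striated muscle (Myl1, Myl2, Myl3, Myl4, Mylpf and Myl6b), which brace the lever arm of the heavy chain, had no member called in EMD-/y at any time. All 5 that could be compared were lower at 24 h in Δ95–99, with a median of -3.36, and in Q133H, with a median of -3.97. At 48 h all 5 were still lower in Q133H (-2.26) and 4 of 5 in Δ95–99 (-1.48). In Q133H at 24 h, Myl1 stood at -4.37 and Mylpf at -4.10. In +EMD, 4 of 5 were lower at 24 h (-1.51) and 1 of 5, the slow regulatory chain Myl2, at 48 h (-0.95). In S54F, 2 of 5 were lower at 24 h (-0.60). Already at 0 h, 3 of 4 compared were lower in Δ95–99 (-1.22) and 2 of 4 in +EMD (-1.45). At that time 6.75% and 10.9% of all compared genes were lower in these 2 lines.

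Proteins that bind the thick filament (Mybpc1, Mybpc2, Mybpc3, Mybph, Myom1, Myom2, Myom3 and Ttn) include myosin binding proteins, the myomesins of the M band and titin, the ruler of the sarcomere. At 24 h, 6 of 6 compared were lower in Δ95–99 (-3.70) and in Q133H (-5.37), 5 of 6 in +EMD (-1.86) and 2 of 6 in S54F (-0.92). In EMD-/y at 24 h none was lower and Mybpc2 was higher at 1.58. At 48 h, 7 of 7 were lower in Q133H (-3.33) and 5 of 7 in Δ95–99 (-1.21). Myom1 stood at -5.97 in Q133H and -5.11 in Δ95–99 at 24 h. Already at 0 h, 4 of 6 were lower in Δ95–99 (-1.17) and 3 of 6 in +EMD (-0.77).

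Genes that fold or clear myosin (Unc45b, Smyd1, Hsp90aa1, Trim63, Trim54 and Trim55) include Unc45b, the myosin chaperone, and Trim63, the ubiquitin ligase MuRF1. At 24 h, 5 of 6 were lower in Q133H (-4.50) and in Δ95–99 (-2.92), and 3 of 6 in +EMD (-1.03), where S54F and EMD-/y had none. At 48 h, 4 of 6 were lower in Q133H and 1 of 6, Trim63, in Δ95–99. Unc45b stood at -0.81, -6.68 and -3.05 in Q133H at 0, 24 and 48 h. In EMD-/y at 0 h, 3 of 6 were higher, Unc45b, Trim63 and Trim54 (4.97% of all compared genes), and Trim63 stood at 1.41. Hsp90aa1, a general chaperone, was called in no line table.

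Regulators of heavy chain genes included the myogenic factors Myod1, Myog, Myf5 and Myf6, the MEF2 factors Mef2a, Mef2c and Mef2d, the fast-fibre factors Six4 and Eya1, and Sox6, Nfix, Tbx15, Prox1, Vgll2 and Tead4. Mef2c, which activates sarcomere genes late in differentiation, was lower in +EMD at all times, at -3.03, -4.50 and -1.93. It was also lower in Δ95–99 at -1.90, -5.48 and -2.32, and in Q133H at 24 and 48 h, at -3.79 and -1.76. At 48 h Mef2c was below wildtype in +EMD, Δ95–99 and Q133H. Myh2, Myh3, Myh7b and Myh8 were called lower in each of these lines, Myh4 and Myh6 in Δ95–99 and Q133H only, and Myh1 in none. Myh7 at that time was higher in +EMD (1.29), lower in Q133H (-2.58) and not called in Δ95–99 (-0.58). The part of Mef2c in these values was not tested.

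Myog, myogenin, was lower in Q133H at 24 h (-3.73) and 48 h (-1.27) and in Δ95–99 at 24 h only (-1.89), with a ratio of -0.32 at 48 h. Myf5, a factor of proliferating progenitors, was higher in +EMD and Δ95–99 at all times, and in Q133H at 24 and 48 h, with 1.78, 2.93 and 2.18 at 48 h. It was also called higher in S54F, at 48 h only. In Q133H at 24 h, 9 of the 15 regulators compared were lower and 2 higher, with a median of -1.55. In Δ95–99 at 24 h, 7 of 15 were lower and 1 higher (-0.83). In EMD-/y none was lower at any time, and Prox1, a factor of slow fibres, was higher at all 3, at 1.66, 1.38 and 1.24. Pax7, a marker of undifferentiated progenitors, stood at 3.31, 6.43 and 8.34 reads in Q133H against 379, 141 and 52.3 in wildtype. The other lines went the other way: Pax7 was called higher than in wildtype in EMD-/y, +EMD, S54F and Δ95–99 at all 3 times. The list medians and the heavy chain values come from the same groups and are not independent of each other.

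**Figure D5:**
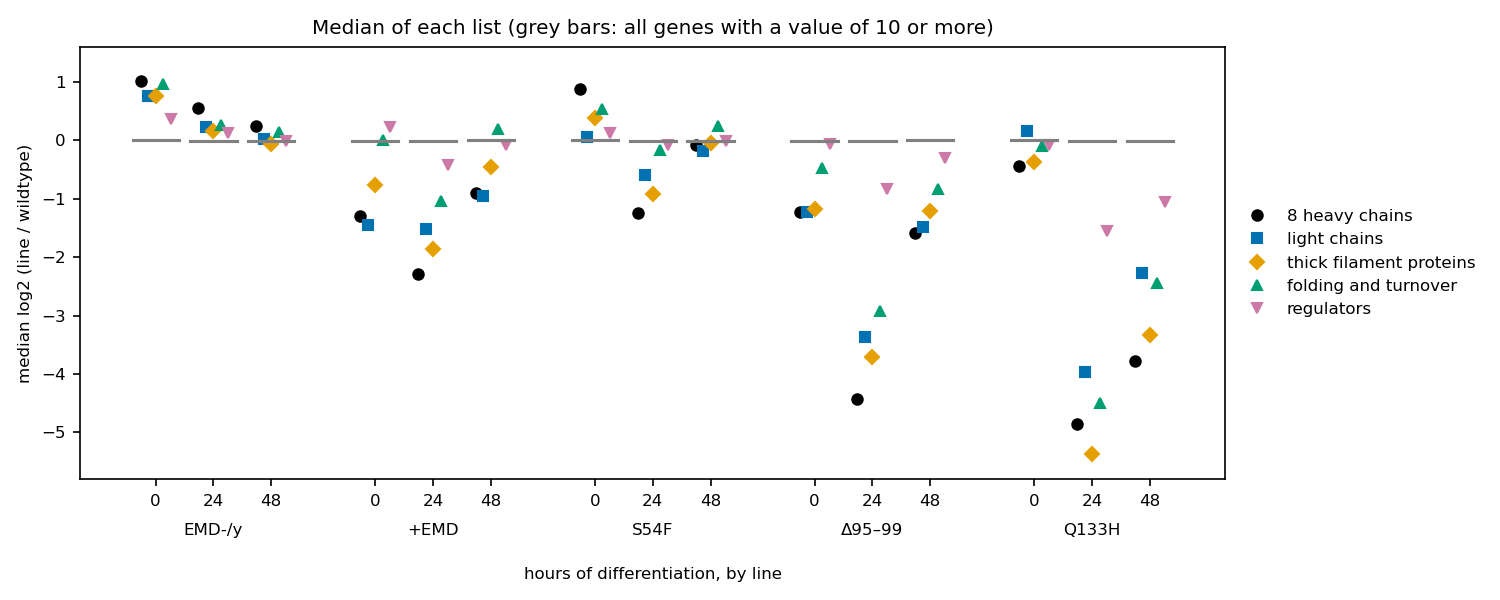
Median log2 ratio to wildtype of the genes compared in each list, by line and time, with grey bars for the medians of all genes. The 5 plotted lists are heavy chains, light chains, thick filament proteins, folding and turnover, and regulators. Their medians are all below 0 at 24 h in +EMD, S54F, Δ95–99 and Q133H, and are lowest in Δ95–99 and Q133H.

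For each member, genes whose level over the 18 groups was most like its own were taken from its 3 closest. Likeness was Pearson's r of log2(level + 1), a description over groups that share tables and libraries, among 12108 genes. For Myh3 they were Hrc (0.995), a calcium-binding protein of the sarcoplasmic reticulum, Mybph (0.992), a myosin binding protein, and Tnnc1 (0.992), slow troponin C. For Myh8 they were Lmod2 (0.989), which lengthens thin filaments, Myom1 (0.988), a myomesin, and Capn3 (0.985), the muscle calpain. The genes most like Myh2 were less close and included Ankrd2 (0.931) and Smim1 (0.925). The genes close to Myh1 included Myl1 (0.957), a fast light chain, and Fras1 (0.957).

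The genes close to Myh7 included Cacng6 (0.977) and Myl1 (0.977), the latter also named for Myh1. For Myh4 they were Hspb7 (0.980), a small heat shock protein of muscle, Txlnb (0.974) and Mb (0.972), myoglobin. For Myh6 they were Mlip (0.977), Trim63 (0.974) and Ankrd23 (0.973), and for Myh7b they were Tnnt2 (0.974), cardiac troponin T, Hrc (0.972) and Adamtsl2 (0.970). Between members, r ran from 0.589 for Myh1 and Myh2, which are neighbours on chromosome 11, to 0.970 for Myh4 and Myh8, over 28 pairs. The names with Spearman's rho were the same 3 genes for 1 member and differed for 7.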

How the data were processed

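RNA from 54 samples in 18 groups was made into poly-A libraries by the sequencing provider, and the authors filtered reads with SOAPnuke, aligned them to mm10 with HISAT2 and ran DESeq2. No versions are given in the sources used here. Each of the 27 deposited tables holds, per gene, a pooled expression signal for 2 groups, the transcript length, and the authors' comparison (log2 fold change, p-values, adjusted p-values and direction), which was not used. The deposited signal is a normalized read count, but the 2 values of a table follow a shrunken ratio and are not plain group means. The tables hold no column of a single sample, so the limma fit that had been planned was replaced by its stated fallback without a test: log2((second + 1)/(first + 1)), called at 2-fold or more with the higher value at least 10. A group's level is its median over its tables. Depth per sample is unknown, and sums of the signal were 16719491 to 21128040 per group.

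All 8 members were named, with the genes of the fixed partner lists, and the 3 genes with the highest Pearson r for each member whose level reached 50. Some of these genes are not reported here. The members and lists were chosen with earlier results of these data known. Symbols were matched for 17824 of 17855 gene identifiers, and 1798 predicted genes had none. Promoters and positions were read from RefSeq and the annotation of GRCm38.p6. Alternatives were the added value (0.1 and 10), the minimum (none and 50), the fold (1.5 and 4), centring, scaling to the sum, levels from other tables and Spearman's rho. Calling was run on simulated tables of plain group means with 4-fold changes planted in genes with a mean of at least 50. The deposited values are not plain means, so this run does not measure how often calls on them are wrong. Python 3.11.15, pandas 2.3.3, numpy 2.4.6 and matplotlib 3.10.9 were used.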

Additional observations from a re-analysis of the deposited data

How the results depend on the processing

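The number of member calls in the line tables (70) ran from 64 to 91, in the time tables (72) from 63 to 78, and in the differences of time changes (40) from 34 to 53 under all alternatives other than those at 4-fold, where the line tables had 43 calls, 52 calls were left in the time tables and 21 among the differences. The difference between Δ95–99 and wildtype from 24 to 48 h for Myh2 turned from 1.70 to -0.0081 when 10 instead of 1 was added before the logarithm, because Myh2 had under 5 reads at 24 h in Δ95–99. No other value changed sign once called. Levels from the groups' other tables, an alternative chosen after seeing the data, gave 76, 74 and 47 calls, of which 69, 71 and 34 were calls of the reported analysis with the same sign. The 6 calls on EMD-/y from 0 to 24 h were lost under it, and 7 on Q133H from 24 to 48 h were gained. It moved 61 of 294 single values by more than the spread between tables, an added value of 10 moved 60, scaling to the sum 37, an added value of 0.1 moved 2 and centring none. No paired analysis was possible because the deposited columns pool the replicates and carry no replicate numbers. For the same reason the planned limma fits (voom, trend, other size factors, other adjusted p thresholds) and the fits without single libraries were not run. Depth limits Myh6, Myh7b, Myh4 and Myh2 at 0 and 24 h in the transduced lines, where many levels were under 10 reads.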

Other observations

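Class II heavy chains other than the members were read beside them. Myh10, a nonmuscle chain, was higher than in wildtype in Q133H at all 3 times, with log2 ratios of 2.31, 2.68 and 2.46, and lower in +EMD at -3.85, -2.37 and -1.73. It was also called higher in Δ95–99 at all 3 times and in S54F at 0 and 24 h. EMD-/y stood at 1.51, 1.72 and 1.99, so the ratios of +EMD and of its parent line had opposite signs. Myh9, the most abundant nonmuscle chain in wildtype, was called in no line table. Myh13, the chain of extraocular muscle, stood at 79.5 reads in +EMD at 48 h against 9.72 in wildtype and 27.4 in EMD-/y. At that time it was called higher than in wildtype in +EMD, EMD-/y and Δ95–99. Myh14 was lower than in wildtype at 0 h in all 5 other lines, at -1.72 in EMD-/y and -1.90 in Q133H. None of these values had a test.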
